A study of Homo sapiens with 10 samples.

Results

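The genes described here are 10 genes of epithelial adhesion, listed by name out of 61533 genes in the count tables: EPCAM, MPZL2, CLDN1, CLDN4, CLDN7, OCLN, ST14, SPINT1, SPINT2 and AP1M2. They were measured by RNA-seq in the human bladder cancer line T24 and in T24R2, a cisplatin-resistant line derived from T24 by serial exposure to cisplatin, with 5 libraries of each line from day 3 of culture. Per the labels, both lines grew in the same serum-containing medium, without mention of the drug, whereas the methods of the study keep T24R2 in cisplatin, so effects of the line and of the drug cannot be told apart. T24R2 is 1 derived line, and the replicates are not said to be separate cultures, so p-values measure only the spread between these libraries. The genes were selected on their difference in read counts between T24R2 and T24, and their values in that comparison are therefore given as a description, without a test.

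Tight junctions seal the space between neighbouring epithelial cells: claudins form their strands, occludin sits in the same strands, and cytoplasmic scaffold proteins tie them to actin. EPCAM is a homophilic adhesion protein of epithelia that binds claudin-7 and is cleaved by matriptase, the membrane protease encoded by ST14, whose activity is held down by the Kunitz-type inhibitors HAI-1 (SPINT1) and HAI-2 (SPINT2). Epithelial cells also express a particular medium subunit of the clathrin adaptor AP-1, AP1M2, which sorts proteins to the basolateral membrane. The urothelium, the epithelium that lines the bladder, depends on such junctions for its barrier.

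Of the 10 adhesion genes, 7 were lower in T24R2 with no overlap between libraries, SPINT1 with no reads at all in T24R2, and AP1M2 had reads in T24R2 only. Levels are given as CPM, counts scaled to library size with the TMM factors of edgeR, and levels of different genes are compared as RPKM, which also divides by exon length. Exon length merges all annotated exons of a gene, so it can exceed the length of the transcripts present. Each T24 library held between 9257843 and 10247941 counts, and each T24R2 library between 9591379 and 10840954. The floor of detection was set at 3 counts, so that a gene is called at the floor in a line if none of its libraries exceeds this, and 3 counts in the shallowest library correspond to 0.343 CPM in T24 and 0.295 CPM in T24R2. Of the 10 genes, 8 passed the filter on low counts, and CLDN7 and ST14 did not. By the call rule used for all genes (adjusted p under 0.05 with a log2 fold change beyond 0.5 in either direction), 26.5% of all 16181 tested genes were called lower in T24R2 and 24.9% higher. No calls are given for the 10 genes. Their choice on this difference fixed how many pass the rule or separate the lines, so nothing is read from either. AP1M2 included, the libraries of the lines did not overlap for 8 of the 10 genes, and 61.2% of all tested genes were separated in the same way. Summed over the 10 genes, the level was 915.5 to 1032 CPM in the T24 libraries and 241.5 to 265.8 CPM in the T24R2 libraries. CLDN1 held most of this sum, and without it the range was 402.6 to 444.3 CPM in T24 and 9.405 to 14.95 CPM in T24R2. In bulk libraries of this kind, fewer cells with a transcript and less of it per cell cannot be told apart.

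**Figure D1:**
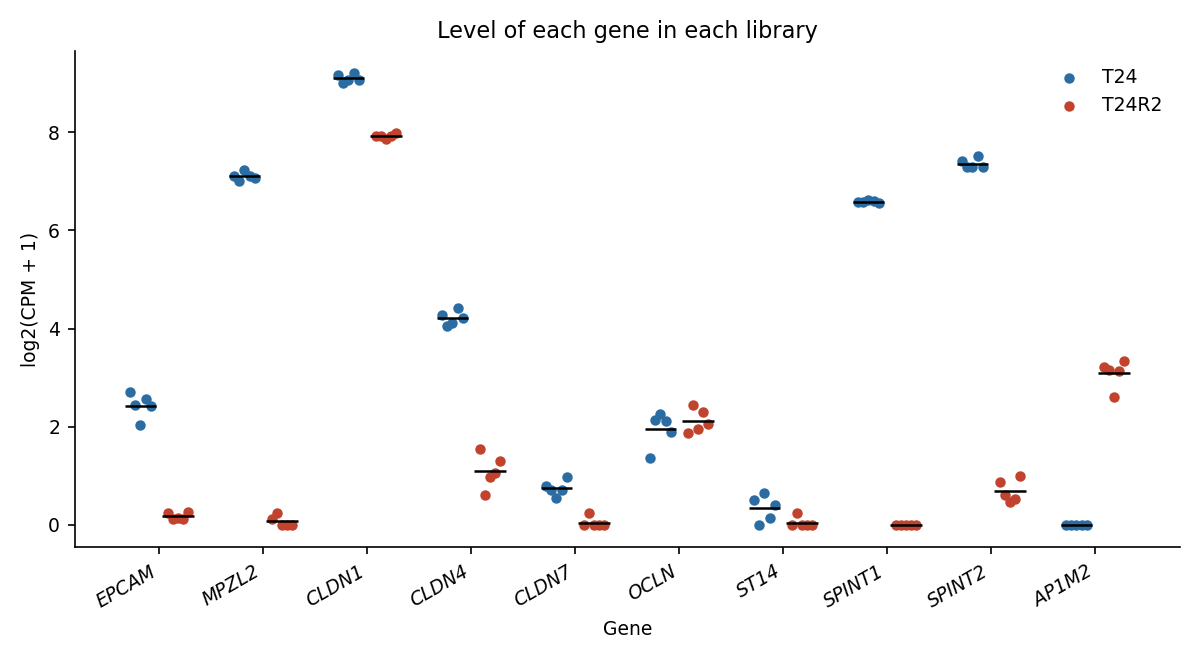
Level of the 10 genes in each library. Points are log2(CPM + 1) values of single libraries, 5 of T24 and 5 of T24R2 for each gene, and bars are means. OCLN and ST14 overlap between the lines, SPINT1 is at 0 in the 5 T24R2 libraries, and AP1M2 is at 0 in the 5 T24 libraries.

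Promoter windows of 300 bases (250 before to 50 after the RefSeq start site, assembly GRCh38.p14) are shown for CLDN4 and CLDN7, which were low in T24 and lower in T24R2, for SPINT1, with no reads in T24R2, and for AP1M2, with no reads in T24. RefSeq windows were matched for 6 of the 10 genes, with 9 windows in all. Capitals mark matches, on either strand, to 4 motifs: CACCTG (the E-box that ZEB and SNAI repressors bind), AACCGGTT (grainyhead factors), GGGCGG (the GC box of SP and KLF factors) and TGANTCA (AP-1). No match overlapped another. Positions are counted from the start site, with -1 the base before it and 1 the first transcribed base, and give the first base of a match. The CLDN4 window (chr7:73830746-73831045, plus strand) and the second CLDN7 window (chr17:7262429-7262728, minus strand) both lie within the spans of their genes in the deposited tables.
CLDN4: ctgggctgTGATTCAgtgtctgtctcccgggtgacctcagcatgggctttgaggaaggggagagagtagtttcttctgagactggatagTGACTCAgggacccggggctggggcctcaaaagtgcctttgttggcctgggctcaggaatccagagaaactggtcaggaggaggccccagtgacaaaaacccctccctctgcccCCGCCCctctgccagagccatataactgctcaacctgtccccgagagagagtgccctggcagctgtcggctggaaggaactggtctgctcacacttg
CLDN7: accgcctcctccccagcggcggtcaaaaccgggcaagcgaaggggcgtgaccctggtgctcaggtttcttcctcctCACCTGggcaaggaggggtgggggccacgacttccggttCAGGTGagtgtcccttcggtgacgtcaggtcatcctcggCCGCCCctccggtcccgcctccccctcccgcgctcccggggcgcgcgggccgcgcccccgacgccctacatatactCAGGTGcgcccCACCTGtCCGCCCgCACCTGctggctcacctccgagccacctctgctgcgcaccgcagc
The SPINT1 window (chr15:40843798-40844097, plus strand) lies within the span of the antisense gene SPINT1-AS1, and the AP1M2 window (chr19:10587263-10587562, minus strand) covers the start of AP1M2.
SPINT1: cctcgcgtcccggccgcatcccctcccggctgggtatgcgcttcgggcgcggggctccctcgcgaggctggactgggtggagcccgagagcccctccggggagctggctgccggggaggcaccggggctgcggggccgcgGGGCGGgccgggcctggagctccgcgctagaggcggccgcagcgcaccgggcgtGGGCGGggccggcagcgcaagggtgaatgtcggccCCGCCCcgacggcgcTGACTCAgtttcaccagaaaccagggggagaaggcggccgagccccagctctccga
AP1M2: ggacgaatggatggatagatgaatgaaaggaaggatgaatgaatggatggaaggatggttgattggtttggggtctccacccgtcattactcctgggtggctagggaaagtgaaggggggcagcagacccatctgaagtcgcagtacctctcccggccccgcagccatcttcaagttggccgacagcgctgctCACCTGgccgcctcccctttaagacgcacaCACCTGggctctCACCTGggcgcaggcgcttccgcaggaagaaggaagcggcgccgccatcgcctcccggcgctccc

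The windows differed in which motifs they held. AP1M2 had 3 E-boxes, at -57, -27 and -15, and the second CLDN7 start site had 5, at -174, -135, -20, -9 and 6. E-boxes were also in both windows of OCLN, which did not separate the lines, at -33 in the first and at -133 and 36 in the second, and in the second SPINT1 window at -26. CACCTG occurs in 20.6% of 35116 RefSeq promoters of the same length. The first SPINT1 window had no E-box, 3 GC boxes at -110, -56 and -21 (GC boxes occur in 45.0% of all windows) and 1 AP-1 match at -6 (7.71% of all windows). CLDN4 had AP-1 matches at -242 and -161, a GC box at -47 and no E-box. GC boxes were also in the second CLDN7 window (-96 and -2), the CLDN1 window (-88 and -40) and the first OCLN window (-55), and the first CLDN7 window held none of the motifs. The grainyhead letters, found in 0.134% of all windows, were in 0 of the 9. Counts of CG dinucleotides ran from 5 in the CLDN4 window to 38 in the first SPINT1 window, against a median of 14 over all windows. These matches describe letters in a window and carry no information on whether a factor was bound.

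EPCAM (ENSG00000119888.11, plus strand of chromosome 2 of hg38, 47345158 to 47387601) was expressed at a low level in T24 and was nearly undetected in T24R2. In T24 replicates 1 to 5 its level was 5.50, 4.42, 3.09, 4.95 and 4.32 CPM, and in T24R2 replicates 1 to 5 it was 0.183, 0.0867, 0.0960, 0.0891 and 0.197 CPM. All T24 libraries thus lay above all T24R2 libraries, which held 1 or 2 reads each. Means were 4.45 ± 0.899 and 0.130 ± 0.0548 CPM (SD, n = 5 each), a ratio of 34.7 with a counting interval of 16.5 to 87.4 (exact, 95%, counting error only). The log2 fold change was -4.98 with a standard error of 0.39.

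MPZL2, also called EVA1, an immunoglobulin-domain adhesion protein of epithelia, showed the widest ratio among the 10 genes with a read in both lines. The gene (ENSG00000149573.9) lies on the minus strand of chromosome 11 from 118253416 to 118264536. T24 replicates 1 to 5 had 136.6, 128.3, 148.4, 136.9 and 133.8 CPM. In T24R2 replicates 1 and 2 it had 0.0917 and 0.173 CPM, and the other 3 libraries had 0 reads. With 3 reads in all in T24R2, against 1220 to 1316 per library in T24, the ratio of the means was 2471 with a counting interval of 845 to 12000. MPZL2 was thus at the floor in every T24R2 library, and the log2 fold change of -10.98 was -11.88 without T24R2 replicate 2, which held 2 of the 3 reads. In T24, MPZL2 had 28.9 RPKM, next to SPINT1 in the order of the 10 genes per length as counted.

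Among the tight junction proteins, CLDN1 kept a high level in both lines, CLDN4 and CLDN7 were low in T24 and lower in T24R2, and OCLN did not separate the lines. CLDN1 encodes claudin-1, a sealing claudin, and lies on the minus strand of chromosome 3 from 190305707 to 190322446 (ENSG00000163347.6). Its level was 573.0, 512.9, 532.4, 587.8 and 538.3 CPM in T24 replicates 1 to 5, and 242.3, 240.3, 232.1, 241.8 and 250.8 CPM in T24R2 replicates 1 to 5. The highest T24R2 library stayed below the lowest T24 library. T24R2 had 44.0% ± 1.22 of the T24 mean (SD, n = 5), with a log2 fold change of -1.18 (standard error 0.04). Per length, CLDN1 was the highest of the 10 genes in both lines, at 151.3 RPKM in T24 and 66.6 RPKM in T24R2, with no overlap with the gene next in order.

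CLDN4, a claudin of many simple epithelia, lies on the plus strand of chromosome 7 from 73799542 to 73832690 (ENSG00000189143.10). It had 18.5, 15.7, 16.2, 20.4 and 17.5 CPM in T24 replicates 1 to 5, and 1.93, 0.520, 0.960, 1.07 and 1.48 CPM in T24R2 replicates 1 to 5. The lines did not overlap, although T24R2 libraries varied among themselves with a coefficient of variation of 44.9%, where counting alone gives 28.0%. The ratio of the means was 15.0, with a counting interval of 11.6 to 19.6, and the log2 fold change was -3.89 (standard error 0.19). The claudin that pairs with EPCAM, CLDN7 (ENSG00000181885.18, minus strand of chromosome 17, 7259903 to 7263983), was barely detected even in T24, with 4 to 9 reads per library. Its level was 0.727, 0.631, 0.457, 0.645 and 0.972 CPM in T24 replicates 1 to 5, and in T24R2 it had 0.173 CPM in replicate 2 and 0 in the others. These levels gave a ratio of 18.7, with a wide counting interval of 4.77 to 161.

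OCLN encodes occludin and lies on the plus strand of chromosome 5 from 69492292 to 69558104 (ENSG00000197822.12). T24 replicates 1 to 5 had 1.56, 3.37, 3.77, 3.33 and 2.7 CPM, and T24R2 replicates 1 to 5 had 2.66, 4.42, 2.88, 3.92 and 3.15 CPM. The ranges overlapped. Means were 2.95 ± 0.866 CPM in T24 and 3.41 ± 0.741 CPM in T24R2 (SD, n = 5 each), with a log2 fold change of 0.22 and a 95% interval of -0.25 to 0.68. A difference inside that interval was not resolved at this depth.

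The protease and its inhibitors did not have the same levels: ST14 was near the floor in both lines, whereas both inhibitors were abundant in T24 and nearly or fully undetected in T24R2. ST14 (ENSG00000149418.11, plus strand of chromosome 11, 130159782 to 130210362) had 0.415, 0, 0.571, 0.108 and 0.324 CPM in T24 replicates 1 to 5, which is 0 to 5 reads. In T24R2 it had 0.173 CPM in replicate 2 and 0 in the others. The lines overlapped, and no fold change is given at this depth.

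SPINT1 (ENSG00000166145.15, plus strand of chromosome 15, 40844018 to 40858207) had 94.4, 95.1, 97.9, 95.5 and 93.3 CPM in T24 replicates 1 to 5, or 857 to 909 reads per library. In T24R2 it had 0 reads in all 5 libraries. Against the limit of 3 counts per library, SPINT1 was at least 323-fold lower in T24R2. SPINT1-AS1, which shares 100 exon bases with SPINT1 on the opposite strand (2.82% of the SPINT1 exon bases), was also at 0 in T24R2 and had 8.99 ± 1.03 CPM in T24 (SD, n = 5). The counting used the strand of the first read (option 1), and the kit is not described as strand-specific. Reads in exon bases that genes share on opposite strands therefore cannot be told apart here.

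SPINT2 (ENSG00000167642.13, plus strand of chromosome 19, 38244035 to 38292615) had 169.0, 155.1, 155.1, 182.4 and 155.3 CPM in T24 replicates 1 to 5. In T24R2 replicates 1 to 5 it had 0.826, 0.520, 0.384, 0.446 and 0.983 CPM, or 4 to 10 reads. T24 libraries were all above T24R2 libraries, with a ratio of the means of 261 (counting interval 186 to 377) and a log2 fold change of -8.00 (standard error 0.11). The antisense gene ENSG00000286037, whose 622 exon bases all lie within SPINT2 exons (12.2% of them), had 113 ± 8.67 CPM in T24 and 0.403 ± 0.223 CPM in T24R2 (SD, n = 5 each). With its level taken off, SPINT2 had 50.2 CPM in T24 and 0.229 CPM in T24R2, so the direction between the lines was the same. The order of SPINT2 and SPINT1 within T24 is not settled, since SPINT1 had 86.2 CPM with the level of SPINT1-AS1 taken off. Per length, SPINT2 (32.1 RPKM), MPZL2 (28.9) and SPINT1 (26.9) followed CLDN1 in T24, and neighbours in this order overlapped between libraries.

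AP1M2 went the other way. The gene (ENSG00000129354.12, minus strand of chromosome 19, 10572671 to 10587315) had 0 reads in all 5 T24 libraries, and 8.35, 7.89, 5.09, 7.75 and 9.14 CPM in T24R2 replicates 1 to 5, or 53 to 93 reads. The mean in T24R2 was 7.64 ± 1.53 CPM (SD, n = 5), at least 22.3-fold higher than the T24 limit of 3 counts per library. Per length, AP1M2 (3.45 RPKM) was next to CLDN1 in T24R2 and stood above OCLN (0.302 RPKM) in every library. Of the other genes in T24R2, neighbours in the order from OCLN downward overlapped.

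The order of the genes per length was therefore not the same in both lines. As counted, it ran in T24 CLDN1, SPINT2, MPZL2, SPINT1, CLDN4, EPCAM, CLDN7, OCLN, ST14 and AP1M2, and the 5 genes after CLDN1 spanned 32.1 to 1.83 RPKM. CLDN4 (3.76 RPKM) and EPCAM (1.83 RPKM) were each apart from their neighbours, while CLDN7 (0.276 RPKM) overlapped OCLN (0.262 RPKM). The place of SPINT2 is not settled, since with the level of ENSG00000286037 taken off it had 9.88 RPKM in T24, below the means of MPZL2 and SPINT1, and 0.045 RPKM in T24R2, below the mean of EPCAM. As counted, the order in T24R2 was CLDN1, AP1M2, OCLN, CLDN4, SPINT2, EPCAM, CLDN7, MPZL2, ST14 and SPINT1.

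Defining markers were looked at to see what kind of cells these levels came from. Of 14 urothelial markers, 6 passed the count filter. All 6 were called lower in T24R2 by edgeR's quasi-likelihood test, beside 26.5% of all tested genes called lower. KRT17 and KRT19, at the floor in T24R2, passed the filter on their T24 reads. KRT7, KRT8 and KRT18 were the most abundant of the list in both lines, and KRT7 was 2242 ± 70.2 CPM in T24 and 1370.0 ± 64.6 CPM in T24R2 (SD, n = 5 each). KRT19 fell from 267 ± 7.23 to 0.0887 ± 0.124 CPM (SD, n = 5 each; log2 fold change -11.32, standard error 0.13, edgeR adjusted p = 6.2e-42), with a log2 fold change of -12.13 without T24R2 replicate 2. KRT17, a keratin of basal and stratified epithelia, fell from 45.5 to 0.113 CPM (log2 fold change -8.53, edgeR adjusted p = 5.1e-30; -9.12 without T24R2 replicate 1 and -9.13 without replicate 3), and UPK2, a uroplakin of umbrella cells, from 9.90 to 2.74 CPM (-1.86, edgeR adjusted p = 1.8e-11). UPK1B, UPK3A, KRT14 and KRT20 were at the floor in all libraries of both lines, so neither line carried the full marker set of urothelium. Summed over the list, replicates 1 to 5 had 5226, 5618, 5205, 4895 and 5154 CPM in T24 and 3191, 2990, 3102, 3067 and 3017 CPM in T24R2.

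Markers of fibroblasts, endothelium and blood were mostly absent, with 9 of 17 at the floor in all libraries of both lines, among them COL1A2, COL3A1, DCN, LUM, KDR, CD3E and HBB. Their summed level was 237.5, 287.4, 257.8, 236.3 and 257.6 CPM in T24 replicates 1 to 5, and 4.50, 4.07, 6.62, 3.12 and 3.84 CPM in T24R2 replicates 1 to 5. In T24, nearly all of this sum was CDH5, the cadherin of endothelium, whereas in T24R2 PECAM1 had the most reads of the list, and CD68, a macrophage marker, the highest level per length, at 0.209 RPKM with 17 of its 24 reads in 1 library. CDH5 was at 239 ± 22.3 CPM in T24 and 0.559 ± 0.310 CPM in T24R2 (SD, n = 5 each; log2 fold change -8.72, edgeR adjusted p = 1.8e-39), while KDR, the endothelial growth factor receptor, was at the floor. COL1A1 fell from 6.45 to 1.03 CPM (log2 fold change -2.65, edgeR adjusted p = 4.9e-12) and PECAM1 from 5.36 to 1.18 CPM (-2.17, edgeR adjusted p = 4.8e-10). PDGFRB, the other of the 4 tested markers, was at least 11.6-fold lower in T24R2, where it had 0 reads. All 4 were called lower, beside 26.5% of all tested genes. They passed the count filter on their T24 reads, which favours genes higher in T24, so no direction of the list is read from this count. In the other direction, PTPRC, the leukocyte marker CD45, had 0.0439 CPM in T24 and 0.475 CPM in T24R2, and PDGFRA had 0 reads in T24 and 1 to 7 reads in each T24R2 library (0.365 CPM). Neither passed the count filter, and the libraries of the lines did not overlap for either. The part of this list in the adhesion genes' levels was not tested.

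Counts of called genes in the lists that follow are to be read beside the shares over all tested genes, 26.5% lower and 24.9% higher. Of 21 claudins outside the 10 genes, 6 passed the count filter. By edgeR's quasi-likelihood test, 2 were called lower (33.3%) and 1 higher (16.7%) in T24R2, near the shares over all tested genes. Their median log2 fold change was -0.42, beside 0.015 over all tested genes. That median was 0.25 where genes with a mean under 100 counts were left out. With all 6 tested claudins, the median lay between CLDN16 (-0.41) and CLDN22 (-0.43), neither of them called. All exon bases of CLDN22 overlap WWC2 on the opposite strand, so its reads cannot be told apart from those of WWC2. CLDN11, a claudin of myelin and testis barriers, was the most abundant of these claudins per length in T24 and fell from 486 ± 5.998 to 175 ± 9.21 CPM (SD, n = 5 each; log2 fold change -1.48, standard error 0.04, edgeR adjusted p = 2.1e-28). CLDN14 fell from 5.88 to 3.20 CPM (log2 fold change -0.88, standard error 0.19, edgeR adjusted p = 7.9e-05). CLDN15, a claudin that forms cation pores, rose from 4.52 ± 0.568 to 20.5 ± 1.33 CPM (SD, n = 5 each; log2 fold change 2.18, standard error 0.12, edgeR adjusted p = 9.3e-19). CLDN8, CLDN17, CLDN19, CLDN24, CLDN25 and CLDN34 were at the floor in both lines. Per length, CLDN11 (112 RPKM in T24 and 40.4 in T24R2) stood closest to CLDN1 among these claudins.

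Of 29 scaffold and transmembrane partners of the tight junction, 22 were tested, and 8 were called lower (36.4%, beside 26.5% of all tested genes) and 0 higher (beside 24.9%) by edgeR's quasi-likelihood test, DESeq2 and limma-voom alike, with a median log2 fold change of -0.38. At an unadjusted p under 0.05 and any fold change, PATJ was the 1 gene higher by edgeR. LSR, the receptor that recruits tricellulin to tricellular contacts, fell from 41.5 to 11.01 CPM (log2 fold change -1.91, edgeR adjusted p = 6.4e-20). AMOTL1, an angiomotin that binds junction scaffolds, fell from 154 to 47.3 CPM (log2 fold change -1.71, edgeR adjusted p = 2.7e-28). Its paralogue AMOTL2, the most abundant of the list per length in T24, had 161 ± 6.04 CPM in T24 and 152 ± 2.90 CPM in T24R2 and did not pass the test (SD, n = 5 each; log2 fold change -0.08, edgeR adjusted p = 0.088).

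**Figure D2:**
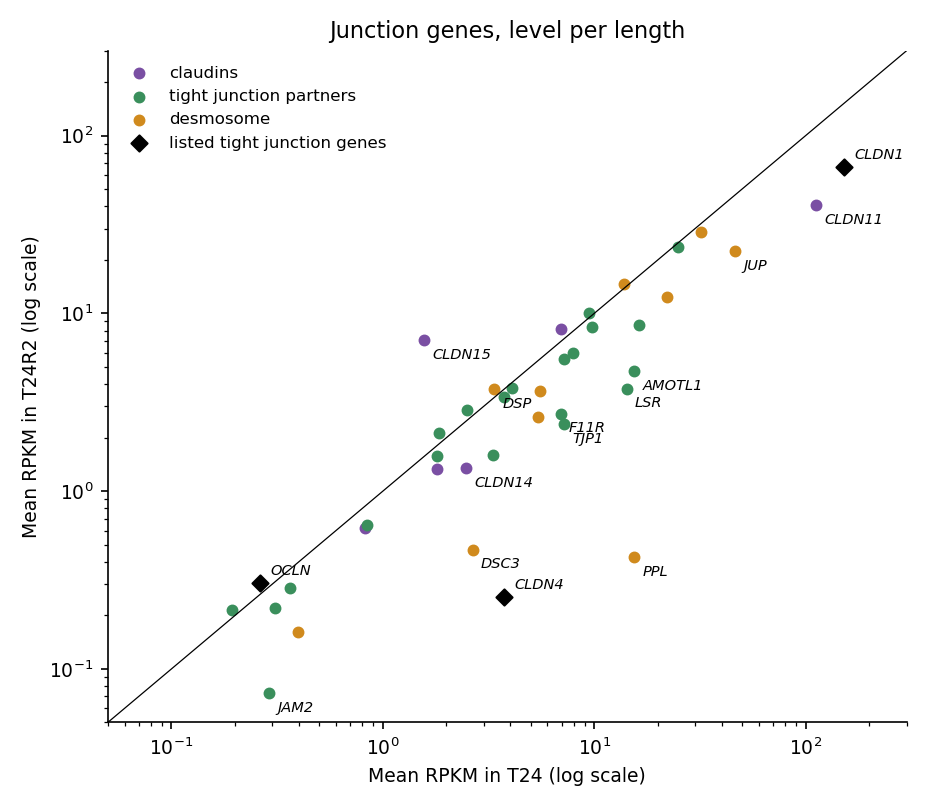
Mean level per length of junction genes in T24 (x axis, RPKM, log scale) and T24R2 (y axis, RPKM, log scale), for the tested claudins, tight junction partners and desmosome genes and for CLDN1, CLDN4 and OCLN. Points on the line have the same level in both lines. Of the named genes, PPL and CLDN4 lie far below the line and CLDN15 lies above it; 1 gene under the range of the y axis is not shown.

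Desmosomes, the junctions that anchor keratin filaments, showed 7 of 10 tested genes (of 15) called lower and 0 called higher by edgeR, DESeq2 and limma-voom, with a median log2 fold change of -0.945. At an unadjusted p under 0.05 and any fold change, DSP was the 1 gene higher by edgeR. PPL, the plakin periplakin, fell from 119 ± 5.11 to 3.28 ± 0.307 CPM (SD, n = 5 each; log2 fold change -5.17, standard error 0.08, edgeR adjusted p = 2.1e-37). DSC3, a desmosomal cadherin, fell from 20.5 to 3.61 CPM (log2 fold change -2.51, edgeR adjusted p = 4.5e-19). JUP, the most abundant of the list per length in T24, encodes plakoglobin and fell from 230 to 110.3 CPM (log2 fold change -1.06, edgeR adjusted p = 5.4e-22). DSP, PKP3 and PERP were the 3 tested genes not called, with log2 fold changes of 0.16, 0.08 and -0.17.

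At the adherens junction, 4 of 11 tested genes (of 14) were called lower (36.4%, beside 26.5% of all tested genes) and 1 higher, with a median log2 fold change of -0.16. That median was -0.001 without scaling beyond library size and -0.36 with no count filter. PLEKHA7, which links p120-catenin to microtubules, fell from 21.4 ± 2.79 to 0.395 ± 0.234 CPM (SD, n = 5 each; log2 fold change -5.75, standard error 0.22, edgeR adjusted p = 6.5e-25). The nectins, immunoglobulin-like adhesion proteins, moved apart: NECTIN1 fell from 40.5 to 14.2 CPM (log2 fold change -1.51, edgeR adjusted p = 4.1e-18), and NECTIN3 rose from 30.3 to 58.9 CPM (log2 fold change 0.96, edgeR adjusted p = 2e-14). NECTIN2 was called lower, from 142 to 97.9 CPM (log2 fold change -0.54, edgeR adjusted p = 1.3e-12). NECTIN4 was not tested and had 1.09 CPM in T24 and 0.0750 CPM in T24R2, with no overlap between libraries. VCL, the actin linker vinculin and the most abundant of the list per length in T24, was 716 and 633 CPM and stayed within the fold change minimum (log2 fold change -0.18, edgeR adjusted p = 0.00016). CDH1, the E-cadherin gene, was at the floor in both lines, with 0 to 2 reads per T24 library and 0 in T24R2.

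Relatives of EPCAM and MPZL2 and other adhesion proteins of epithelia went both ways. Of 12 tested genes (of 16), 5 were called lower (41.7%) and 4 higher (33.3%), with a median log2 fold change of -0.40. CD24, a small mucin-like surface protein, rose from 0.349 ± 0.268 to 13.8 ± 1.66 CPM (SD, n = 5 each; log2 fold change 5.27, standard error 0.26, edgeR adjusted p = 8e-21). PROM2, a protein of membrane protrusions, rose from 0.645 to 5.64 CPM (log2 fold change 3.10, edgeR adjusted p = 1.6e-12). CD151, a tetraspanin that binds laminin-binding integrins, was the most abundant of the list per length in T24 and fell from 576 ± 12.9 to 146 ± 10.0 CPM (SD, n = 5 each; log2 fold change -1.98, standard error 0.05, edgeR adjusted p = 6.2e-32).

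The proteases and substrates around matriptase were largely absent or lower. Of 27 genes, 13 were at the floor in both lines, and of the 8 tested, 6 were called lower and 1 higher, with a median log2 fold change of -1.26. F2RL1, which encodes the protease-activated receptor PAR2, fell from 27.4 ± 1.81 to 0.275 ± 0.207 CPM (SD, n = 5 each; log2 fold change -6.57, standard error 0.20, edgeR adjusted p = 1.4e-27), a ratio of 99.1 with a counting interval of 59.9 to 178. MST1R, the receptor RON for macrophage-stimulating protein, fell from 46.2 to 10.5 CPM (log2 fold change -2.14, edgeR adjusted p = 6.6e-23). PLAU, urokinase, was the most abundant of the list per length in T24 and fell from 529 to 191 CPM (log2 fold change -1.47, edgeR adjusted p = 2.1e-28), and C10orf55 overlaps 31.0% of its exon bases from the opposite strand. HPN, which encodes hepsin, was at the floor in both lines, and PRSS8, which encodes prostasin, had 0.235 ± 0.201 CPM in T24 and 0.0357 ± 0.0489 CPM in T24R2 (SD, n = 5 each).

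Around AP1M2, 6 of 17 tested clathrin adaptor and sorting genes (of 19) were called lower (35.3%) and 4 higher (23.5%), near the 26.5% and 24.9% of all tested genes, with a median log2 fold change of -0.10, which was 0.06 without scaling beyond library size. AP1M1, which encodes the ubiquitous counterpart of AP1M2, was present in both lines at 135 ± 6.55 CPM in T24 and 106 ± 4.47 CPM in T24R2 and stayed within the fold change minimum (SD, n = 5 each; log2 fold change -0.35, edgeR adjusted p = 4.8e-08). Per length, AP1M1 (7.50 RPKM over 14094 merged exon bases) was above AP1M2 (3.45 RPKM over 2214) in the T24R2 means. In CPM, AP1M2 had 7.64 in T24R2. MYO5B, a motor of recycling endosomes in polarized cells, rose from 6.98 ± 1.65 to 24.5 ± 2.21 CPM (SD, n = 5 each; log2 fold change 1.81, standard error 0.12, edgeR adjusted p = 2.2e-16). AP1S3, a small AP-1 subunit, fell from 12.5 to 3.79 CPM (log2 fold change -1.71, edgeR adjusted p = 3e-12), and AP3M2 from 49.2 to 23.2 CPM (log2 fold change -1.08, edgeR adjusted p = 6.5e-17). AP2M1, the medium subunit of the endocytic adaptor and the most abundant of the list per length in T24, fell from 541 to 281 CPM (log2 fold change -0.94, edgeR adjusted p = 1.1e-22). RAB25, a GTPase of epithelial recycling, was at the floor in both lines.

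**Figure D3:**
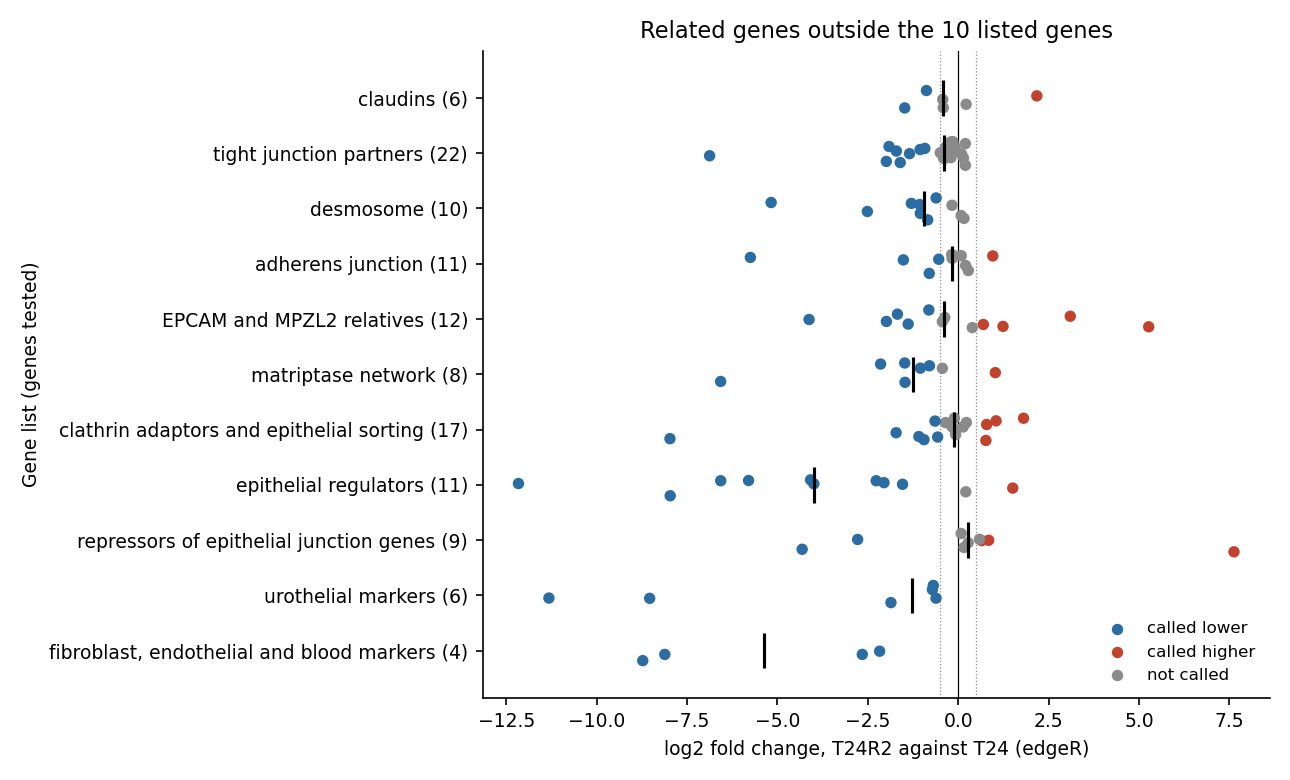
log2 fold changes of T24R2 against T24 from edgeR (x axis) for the tested genes of 11 related lists, the 10 listed genes left out (rows, with the number of tested genes). Blue points were called lower, red points higher, grey points not called, and black bars are medians; dotted lines mark the fold change minimum of 0.5. Points of genes with 0 reads in a line, such as RAB17 and PDGFRB, depend on the prior count of the fit and are not bounds.

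Transcription and splicing factors known to keep epithelial junction genes active were mostly lower in T24R2: of 11 tested (of 16), 9 were called lower and 1 higher, with a median log2 fold change of -3.99. That median was -2.05 with no count filter, -2.24 where genes with a mean under 100 counts were left out and -2.75 with DESeq2 shrinkage. ELF3, an epithelial ETS factor, fell from 72.1 ± 10.2 to 0.278 ± 0.0962 CPM (SD, n = 5 each; log2 fold change -7.96, standard error 0.17, edgeR adjusted p = 1.4e-33), a ratio of 261 with a counting interval of 158 to 467. GATA3, a factor of luminal urothelium, fell from 22.1 to 0.214 CPM (log2 fold change -6.57, standard error 0.24, edgeR adjusted p = 3.6e-25). KLF5, the most abundant of the list per length in T24, fell from 171 to 41.2 CPM (log2 fold change -2.05, edgeR adjusted p = 5.4e-26). KLF4 was the gene called higher, from 21.97 to 62.7 CPM (log2 fold change 1.51, edgeR adjusted p = 2.5e-20). GRHL2, OVOL1 and OVOL2 were at the floor in both lines.

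Among factors known to repress epithelial junction genes, 2 of 9 tested genes (of 12) were called lower and 3 higher, with a median log2 fold change of 0.28. KLF8 rose from 0.0863 ± 0.141 to 19.5 ± 2.04 CPM (SD, n = 5 each; log2 fold change 7.63, standard error 0.29, edgeR adjusted p = 1.4e-24), with 0 to 3 reads in each T24 library and 185 to 240 in each T24R2 library. Without T24 replicate 5 its log2 fold change was 8.96. ZEB2 rose from 18.5 to 33.1 CPM (log2 fold change 0.84, edgeR adjusted p = 2.5e-11). The SNAI genes moved apart: SNAI1 fell from 3.53 to 0.165 CPM (log2 fold change -4.31, edgeR adjusted p = 8e-12), and SNAI2 rose from 12.8 to 20.05 CPM (log2 fold change 0.65, edgeR adjusted p = 8.6e-07). FOXC2 fell from 52.3 to 7.60 CPM (log2 fold change -2.78, edgeR adjusted p = 1.1e-26). TCF3, the most abundant of the list per length in T24, had 139 and 147 CPM and did not pass the test (log2 fold change 0.08, edgeR adjusted p = 0.13). TWIST1, TWIST2 and GSC had 0 reads in all libraries.

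Genes beside the 10 were compared to show whether a difference was shared along the chromosome. Of the 20 nearest tested genes, 1 on each side of each listed gene, 11 were called lower and 1 higher by edgeR's quasi-likelihood test, beside 26.5% and 24.9% of all tested genes. SPINT1-AS1 and ENSG00000286037 are 2 of these 11 and overlap SPINT1 and SPINT2. All exon bases of ENSG00000286037 lie within SPINT2 exons, so its reads cannot be told apart from those of SPINT2. SPINT1-AS1 shares 7.93% of its exon bases with SPINT1, and only reads in those bases cannot be told apart. Of the 17 neighbours whose span does not overlap a listed gene, 9 were called lower and 1 higher. Beside EPCAM, BCYRN1, 9.64 kb before it, had a log2 fold change of 0.13 and was not called. Both neighbours of CLDN4 were called lower, and METTL27, 1.90 kb away, fell from 40.9 ± 3.46 to 7.06 ± 1.21 CPM (SD, n = 5 each; log2 fold change -2.53, edgeR adjusted p = 1.6e-23). ABHD11 on the other side fell from 14.9 to 7.37 CPM (log2 fold change -1.02, edgeR adjusted p = 4.8e-09).

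Beside MPZL2, its paralogue MPZL3 fell from 10.6 to 3.30 CPM (log2 fold change -1.68, edgeR adjusted p = 1.1e-11) and UBE4A from 95.2 to 63.0 CPM (-0.60, edgeR adjusted p = 3e-12). Without scaling beyond library size, UBE4A was under the fold change minimum, at -0.43. ST14, itself near the floor, lies between APLP2, an amyloid precursor-like protein that fell from 2413 to 559.5 CPM (log2 fold change -2.11, edgeR adjusted p = 5.1e-34), and ZBTB44, which fell from 56.4 to 33.2 CPM (-0.76, edgeR adjusted p = 5.3e-13). On the 3′ side of SPINT1, VPS18, 36.2 kb away, had 32.5 and 28.1 CPM and was not called (log2 fold change -0.21, edgeR adjusted p = 0.018). DPF1, before SPINT2, was lower, from 6.93 to 4.48 CPM (log2 fold change -0.62, edgeR adjusted p = 0.0014), and was under the fold change minimum, at -0.46, without scaling beyond library size. AP1M2 lies between CDKN2D (log2 fold change -0.42, not called) and SLC44A2, a choline transporter that fell from 112 to 38.4 CPM (-1.54, edgeR adjusted p = 5.1e-24), so a gene at 0 in T24 sat beside a gene that was lower in T24R2.

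Around CLDN1, P3H2 was called lower (log2 fold change -0.88, edgeR adjusted p = 8.1e-17) and CLDN16 was not called (-0.41, edgeR adjusted p = 0.16). The neighbours of CLDN7, ELP5 and EIF5A, had log2 fold changes of -0.24 and -0.22 and were not called. Beside OCLN, GTF2H2C was called higher (log2 fold change 0.75, edgeR adjusted p = 3.3e-06), a gene with near-identical copies whose counts are uncertain, and RAD17 was not called (0.07, edgeR adjusted p = 0.4).

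**Figure D4:**
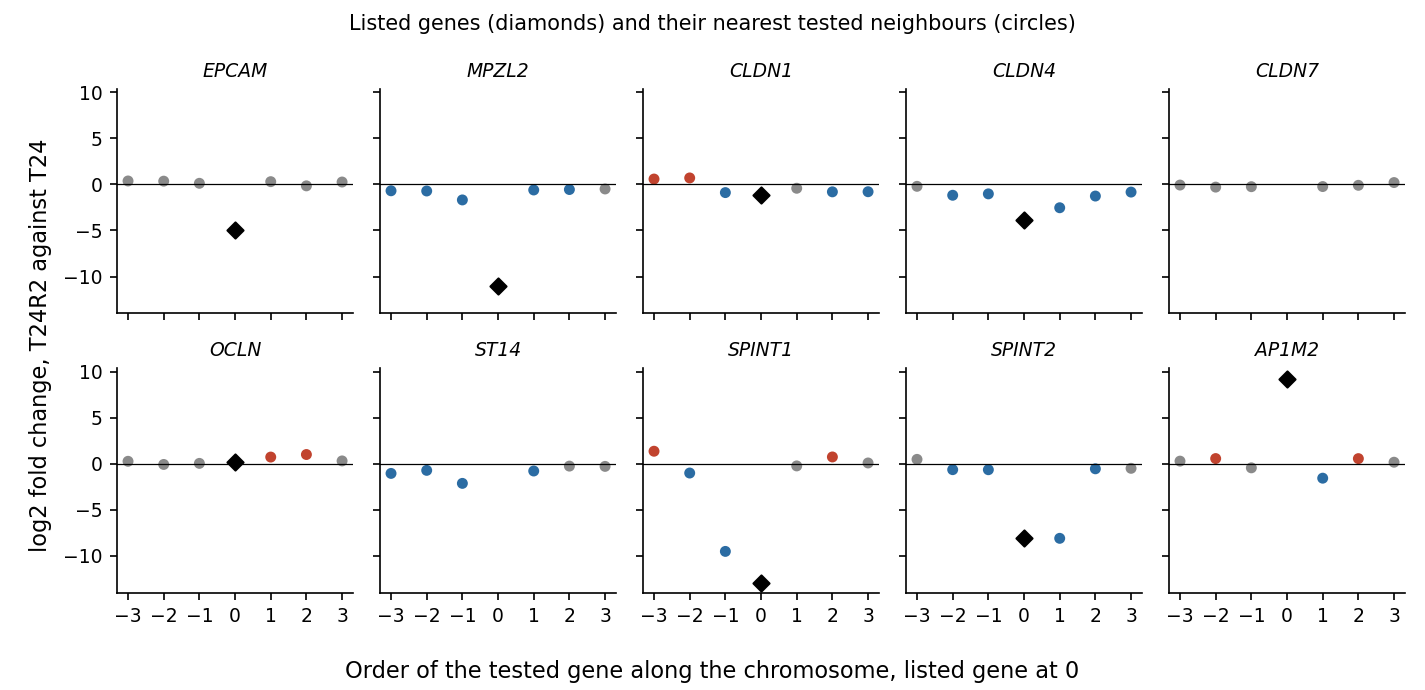
log2 fold changes of T24R2 against T24 from edgeR (y axis) for each of the 10 genes (diamond, at 0; CLDN7 and ST14 were not tested and have none) and its 3 nearest tested genes on each side in chromosome order (x axis). Blue circles were called lower, red circles higher and grey circles not called. Diamonds of SPINT1 and AP1M2, and the circle of SPINT1-AS1 beside SPINT1, belong to genes with 0 reads in a line, and their fitted values depend on the prior count.

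Over the 10 libraries, the genes whose level ran most closely with the mean of the 10 genes on the log2(CPM + 1) scale were HMGA2 (Pearson r 0.9996), LAPTM5 (0.9994), COL4A2 (0.9993), PPL (0.9993) and PLAT (0.9992). All points share the split into 2 lines, and 862 of 12246 genes had an r of at least 0.99, HMGA2 and the others named here among them. HMGA2, an architectural chromatin protein, had 195 ± 10.9 CPM in T24 and 18.04 ± 1.30 CPM in T24R2 (SD, n = 5 each). COL4A2, a basement membrane collagen, had 993 and 86.5 CPM, and PLAT, tissue plasminogen activator, had 2191 and 139 CPM.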

How the data were processed

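RNA-seq libraries of T24 and T24R2 (5 each, day 3) were analysed. The authors used STAR 2.7.0 for alignment to hg38, SAMtools 1.10 to remove duplicates and reads with more than 1 position, and featureCounts 2.0.1 (strand option 1) to count fragments on the genes of GENCODE release 39. The deposited values are raw counts per gene, without pooling of replicates. Of 61533 genes, 61415 had a symbol in the name table.

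The lines were compared by edgeR 4.0.16 under R 4.3.3 (filterByExpr, TMM, glmQLFit, glmQLFTest, Benjamini-Hochberg over 16181 genes), with the line as the single factor. The call rule was an adjusted p under 0.05 with a log2 fold change beyond 0.5 in either direction. TMM factors were 0.936 to 0.951 in T24 and 1.04 to 1.07 in T24R2. The biological coefficient of variation was 6.61%. Counting intervals are exact 95% intervals on summed counts; they and the floor of 3 counts cover counting error only. Library totals of 9257843 to 10840954 counts limit the precision of low genes.

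The members and lists were chosen with earlier results of these data known. Named genes are the 10 listed genes, in each list up to 3 called genes with the largest absolute log2 fold change among those with at least 5 CPM in a line and the highest T24 RPKM, the nearest tested gene on each side, the gene with the most opposite-strand exon overlap, and the 5 most alike genes. Others, such as KLF4, CDH1, AP1M1, HPN, PRSS8, PDGFRB, PDGFRA, PTPRC, CD68, COL3A1, SNAI1, SNAI2, NECTIN2, NECTIN4 and genes at the floor, were named after their values were seen. Some named genes are not reported here.

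On simulated counts with 200 of 16181 genes changed, edgeR called 192 of them and 2 unchanged genes, DESeq2 1.42.0 called 189 and 1, and limma 3.58.1 (voom) 192 and 2. In the data, 26.5% of tested genes were called lower and 24.9% higher. The simulation therefore does not show how scaling or error rates hold where so many genes differ. Alternatives were other scalings, tests, filters and thresholds, a replicate block, wider neighbour windows and leaving out each library; removal of genes with over 10% opposite-strand exon overlap was added after seeing the data. Tables and plots were made in Python 3.11.15 (pandas 2.3.3, numpy 2.4.6, SciPy 1.17.1, matplotlib 3.10.9).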

Additional observations from a re-analysis of the deposited data

Results flagged for a closer look

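A library far from the 4 others of its line was found for 6 of 129 gene and line combinations, where chance alone gives about 6.5 (1 in 20). None of the 10 adhesion genes was among them. AP2M1 was 521.9 CPM in T24 replicate 1, against 542.9 to 550.6 CPM in the other T24 libraries. BCYRN1, beside EPCAM, was 3.085 CPM in T24 replicate 3, against 1.613 to 1.972 CPM. CLDN11 was 496.4 CPM in T24 replicate 1, against 481.8 to 484.5 CPM. DPF1, beside SPINT2, was 4.644 CPM in T24 replicate 5, against 7.199 to 7.959 CPM. AMOTL2 was 146.9 CPM in T24R2 replicate 2, against 152.8 to 154 CPM, and KLF8 was 23.03 CPM in T24R2 replicate 3, against 18.03 to 19.42 CPM.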

How the results depend on the processing

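None of the 8309 called genes changed sign in the alternative fits that tested it, and the log2 fold changes of the listed genes with reads in both lines stayed between -5.15 and -4.01 for EPCAM, -1.21 and -1.02 for CLDN1, -4.13 and -3.68 for CLDN4, 0.05 and 0.38 for OCLN, -8.19 and -7.59 for SPINT2, and -11.88 and -8.82 for MPZL2. Without scaling beyond library size, the median over all genes on the log2 scale moved from 0.015 to 0.177, and the split of calls from 48.5% higher (4282 lower, 4027 higher) to 60.3% higher (3431 lower, 5206 higher); DPF1 (-0.46) and UBE4A (-0.43) were then under the fold change minimum. With genes of a mean of at least 100 counts, 2641 genes were called lower and 2350 higher, and the lists gave 1 claudin lower, 2 EPCAM and MPZL2 relatives lower and 1 higher, 0 matriptase network genes higher, 3 clathrin adaptor and sorting genes lower, 1 repressor lower and 1 of the fibroblast, endothelial and blood markers lower. With a fold change minimum of 1, 2293 genes were lower and 1918 higher, with 1 claudin lower, 2 adherens junction genes lower and 0 higher, 3 clathrin adaptor and sorting genes lower and 2 higher, 1 repressor higher and 3 urothelial markers lower. With no fold change minimum, 6084 genes were lower and 6128 higher, with 2 claudins, 1 tight junction partner, 1 desmosome gene, 3 adherens junction genes and 5 repressors higher and 7 adherens junction genes lower. With no count filter, 3 of the fibroblast, endothelial and blood markers were higher (PTPRC, PDGFRA and COL3A1, the last at the floor in both lines). Without genes overlapped from the opposite strand, 2 clathrin adaptor and sorting genes were higher. With 3 neighbours on each side, 24 of 60 were lower and 8 higher. These settings change how many genes are tested or pass, and no other cause was tested. Leaving out each library in turn gave 4293 to 4374 genes lower and 4042 to 4138 higher. Same-numbered libraries of the lines did not deviate together (correlations 0.010, 0.016, 0.009, -0.019 and -0.021), and with a replicate block 4261 genes were lower and 3979 higher. The other 477 summary values stayed within 1.5 times their count. With the gene at 0 in T24R2 set at its bound, the median of the fibroblast, endothelial and blood markers was -3.09 in place of -5.38, and it was -1.45 with no count filter and -8.69 with genes of a mean of at least 100 counts, where CDH5 alone was left. Across scalings, tests and filters, list medians ran from -0.40 to -0.18 for tight junction partners, -0.63 to -0.24 for EPCAM and MPZL2 relatives and 0.27 to 0.44 for repressors. Depth limits CLDN7 and ST14, with at most 9 reads in a library.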

Other observations

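Several genes of the same lists that no sentence above describes also differed, and were chosen after their values were seen. MET, the receptor for hepatocyte growth factor, fell from 463 ± 19.2 to 224 ± 5.81 CPM (SD, n = 5 each; log2 fold change -1.05, edgeR adjusted p = 1e-23), and its ligand HGF had 0 reads in all libraries. MST1, which encodes the ligand of MST1R, rose from 5.35 to 10.9 CPM (log2 fold change 1.03, edgeR adjusted p = 1.8e-07). BCAM, a laminin receptor of the immunoglobulin superfamily, rose from 93.0 to 151 CPM (log2 fold change 0.70, edgeR adjusted p = 9e-15), and ALCAM, of the same superfamily, fell from 511 to 291 CPM (log2 fold change -0.81, edgeR adjusted p = 1.2e-19). TJP1, which encodes the scaffold ZO-1, fell from 81.5 to 26.9 CPM (log2 fold change -1.60, edgeR adjusted p = 2.1e-23), and F11R, which encodes JAM-A, from 35.1 to 13.8 CPM (log2 fold change -1.34, edgeR adjusted p = 3e-15). ESRP2, an epithelial splicing factor, fell from 9.26 to 0.543 CPM (log2 fold change -4.08, edgeR adjusted p = 1.3e-17). Its paralogue ESRP1 was nearly undetected in both lines and was not tested. It had 1 read in all in T24 and 4 reads in T24R2, all 4 in 1 library.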
